A study of Saccharomyces cerevisiae with 13 samples.

Results

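Iron-sulfur clusters are small groups of iron and sulfide that proteins carry as cofactors. In yeast their assembly begins in the mitochondrial matrix, where the scaffold proteins Isu1 and Isu2 hold a new cluster made from the sulfur of cysteine and from iron, with electrons passed on by a ferredoxin, before chaperones and late-acting factors hand it to the proteins that need it. The pathway is essential in yeast, and it is known for feeding the respiratory chain and for informing the cell of its iron status.

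Described here are 10 of the 5449 genes measured on the arrays, namely ISU1, ISU2, NFS1, YFH1, YAH1, ARH1, JAC1, SSQ1, ISA1 and ISA2, chosen as genes of mitochondrial iron-sulfur cluster assembly. Every one had 1 probe set. The 13 arrays came from the laboratory yeast strain BY4741, grown to saturation at 30°C on glycerol and ethanol, which cells can use only by respiration. The groups were 0.05 mM TFM for 1, 2 and 4 h (2 arrays each), 2% isopropanol for 1 h (2 arrays), 2 h (1 array) and 4 h (2 arrays), and time zero, sampled before treatment (2 arrays). TFM, 3-trifluoromethyl-4-nitrophenol, is a lampricide known to uncouple respiration from ATP synthesis. The labels call isopropanol samples untreated and give no isopropanol level for the TFM samples. They name isopropanol as the agent of the time zero samples too, which the series design places before treatment. They call the RNA samples independent without naming separate cultures, so each p-value measures only the spread between these samples, which may be technical.

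All levels below are log2 RMA values, and all changes are log2 differences ± standard error. Because RMA sets the arrays to a common distribution, a change is relative to the array as a whole, and less RNA per cell cannot be seen. The tests are from 1 limma model over all 5449 genes, and a gene is said to rise or fall when its Benjamini-Hochberg adjusted p over those genes was under 0.05. The 10 genes stood well above background, since their lowest value was 9.90 and the brightest unspiked control probe set averaged 5.94. Replicate arrays correlated across genes at Pearson r of 0.992 to 0.998. As a measure of RNA integrity, the 3 prime probe sets of 7 control transcripts were set against their 5 prime ones; this 3 prime excess, which grows as RNA is degraded or labelled less fully, averaged 1.13 to 1.63 per array. TFM 4 h samples showed an excess of 1.63 and 1.40, against 1.15 and 1.13 in isopropanol 4 h samples. The excess was 1.18 and 1.49 with TFM at 2 h, against 1.14 with isopropanol, and 1.32 and 1.39 with TFM at 1 h, against 1.42 and 1.34 with isopropanol. Its part in the results was not tested beyond the fits that hold it as a covariate.

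The scaffold genes ISU1 and ISU2 rose together under TFM, each reaching about double its isopropanol level after 4 h. ISA1, which encodes a late-acting factor, rose by a smaller amount. ARH1, the gene of the ferredoxin reductase, fell to about 0.52 of its isopropanol level at 4 h, after 1 and 2 h at which it did not pass the test. YFH1, the frataxin gene, fell slightly at 4 h, while NFS1, YAH1, JAC1, SSQ1 and ISA2 did not pass the test against isopropanol at any time. In all, 0 of the 10 genes passed at 1 h, beside 1.23% of all genes on the array. At 2 h 3 rose and 0 fell, beside 8.3% and 5.84% of all genes (14.1% together). At 4 h 3 rose and 2 fell, beside 30.9% and 34% of all genes, so that 5 of 10 passed where 64.9% of all genes did. At 4 h the median size of the change, without its sign, was 0.23 over the 10 genes and 0.39 over all genes.

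**Figure D1:**
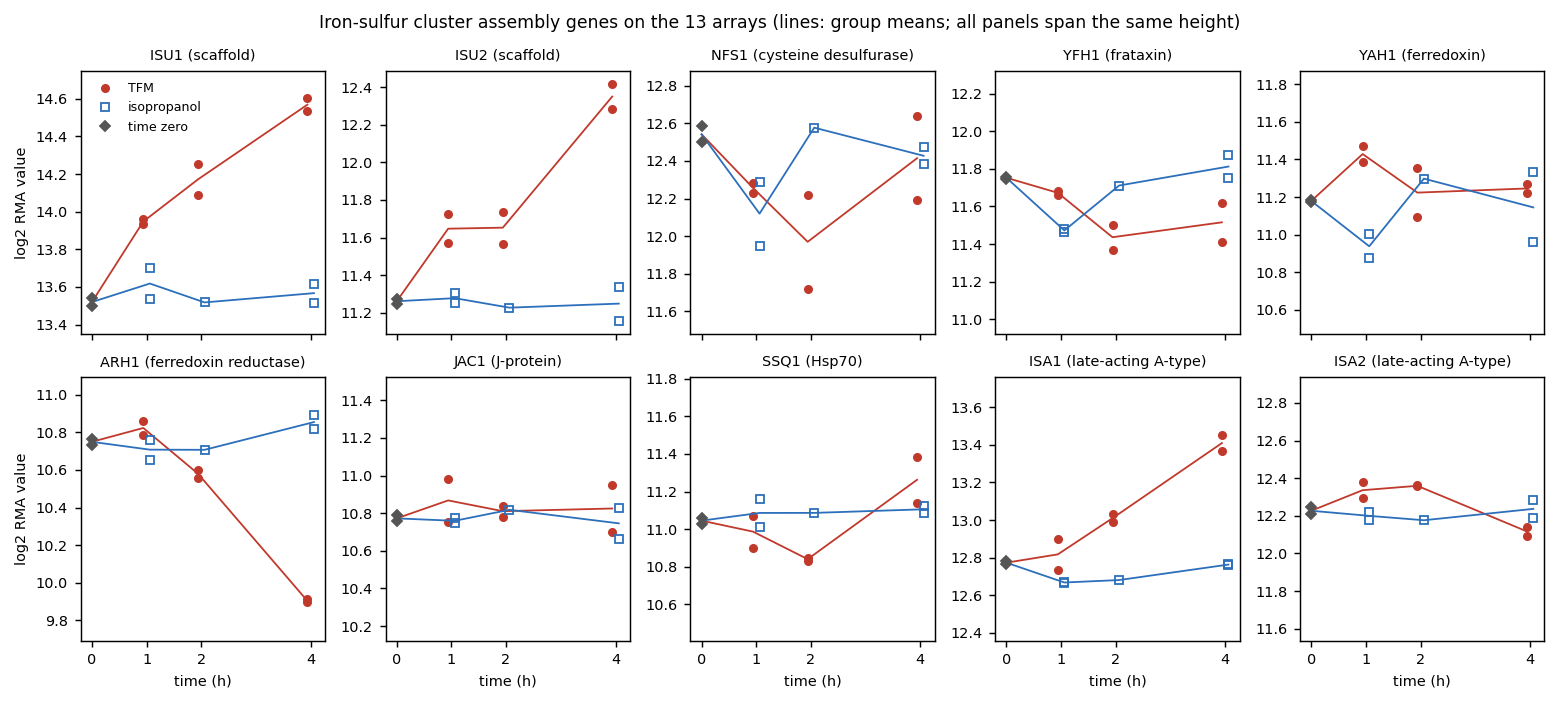
Log2 RMA values of the 10 genes on each array against time in hours, with TFM as filled circles, isopropanol as open squares and time zero as diamonds; lines join group means, and every panel spans the same height. The ISU1 and ISA1 panels climb with TFM time, and the ISU2 panel is level between TFM 1 and 2 h and higher at 4 h. Isopropanol stays near time zero in these panels, and in the ARH1 panel both TFM 4 h arrays lie near 9.90.

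The scaffold pair carries the step at which the cluster is built. Isu1 and Isu2 are close paralogs with overlapping function, and yeast needs at least one of them. ISU1 stood at 13.96 and 13.94 on the TFM 1 h arrays, against 13.53 and 13.70 on the isopropanol 1 h arrays. On the TFM 2 h arrays it stood at 14.26 and 14.09, against 13.52 on the isopropanol 2 h array. On the TFM 4 h arrays it stood at 14.53 and 14.60, against 13.52 and 13.62 on the isopropanol 4 h arrays. The time zero arrays had 13.50 and 13.54, so all 6 TFM arrays were above all 7 others. For this and the like separations of arrays given below, the share of all genes showing them was not counted. The change in ISU1 was 0.33 ± 0.083 at 1 h (limma adjusted p = 0.0958), 0.65 ± 0.10 at 2 h (adjusted p = 0.00516) and 1.00 ± 0.083 at 4 h (adjusted p = 6.5e-06), the last a 2.00-fold level. At 1 h it missed the threshold, and of 25 other settings 4 called it. Against time zero, a control that differs in time as well, it passed (0.43, adjusted p = 0.0456).

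ISU2 stood at 11.72 and 11.57 on the TFM 1 h arrays, against 11.25 and 11.30 with isopropanol. The 2 h arrays had 11.57 and 11.74 with TFM, against 11.23 with isopropanol. After 4 h ISU2 reached 12.28 and 12.42 with TFM, against 11.16 and 11.34 with isopropanol. With time zero at 11.25 and 11.28, the 6 TFM arrays of ISU2 were again all above the other 7. Its change was 0.37 ± 0.093 at 1 h (limma adjusted p = 0.0958), 0.43 ± 0.11 at 2 h (adjusted p = 0.037) and 1.10 ± 0.093 at 4 h (adjusted p = 7.11e-06), a 2.14-fold level. The 2 h call of ISU2 rests on a narrow margin, being lost without TFM 2 h replicate 2 (0.34, adjusted p = 0.131), without either time zero array (adjusted p = 0.0652) or without either isopropanol 1 h array (adjusted p = 0.056). It was also lost with the 3 prime excess as a covariate (0.42, adjusted p = 0.0849). At 1 h ISU2 did not pass against time zero (0.39, limma adjusted p = 0.0666) and passed against all 5 isopropanol arrays (0.39, adjusted p = 0.0123).

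Within the TFM course both genes rose between 2 and 4 h, ISU1 by 0.40 ± 0.083 (limma adjusted p = 0.0029) and ISU2 by 0.70 ± 0.093 (adjusted p = 0.000222), beside 25% of all genes that rose in that step, 28.4% that fell and 53.4% that passed either way. Between 1 and 2 h the change was 0.22 ± 0.083 for ISU1 (adjusted p = 0.253) and 0.01 ± 0.093 for ISU2 (adjusted p = 0.983), and neither passed, nor did any other of the 10 genes, beside 0.551% of all genes. For each array, the ISU1 value less the ISU2 value was set relative to its time zero mean, so that 0 means equal change of the 2 genes. This gap was -0.02 and 0.11 with TFM against 0.03 and 0.14 with isopropanol at 1 h. At 2 h it was 0.43 and 0.09 with TFM against 0.03 with isopropanol. At 4 h it was -0.01 and -0.07 with TFM against 0.10 and 0.02 with isopropanol. The paralogs thus moved by like amounts at 4 h, and at 2 h 1 TFM array showed more change in ISU1. Whether the changes of ISU1 and ISU2 differ was not tested. Probe sequences were not used here, so how far the transcript of one paralog adds to the signal of the other was not tested.

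The effect of TFM differed between 4 and 1 h in 6 of the 10 genes by the test of that difference, upward in ISU1, ISU2 and ISA1 and downward in ARH1, YFH1 and ISA2, beside 22.9% and 26.4% of all genes, 49.3% together.

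**Figure D2:**
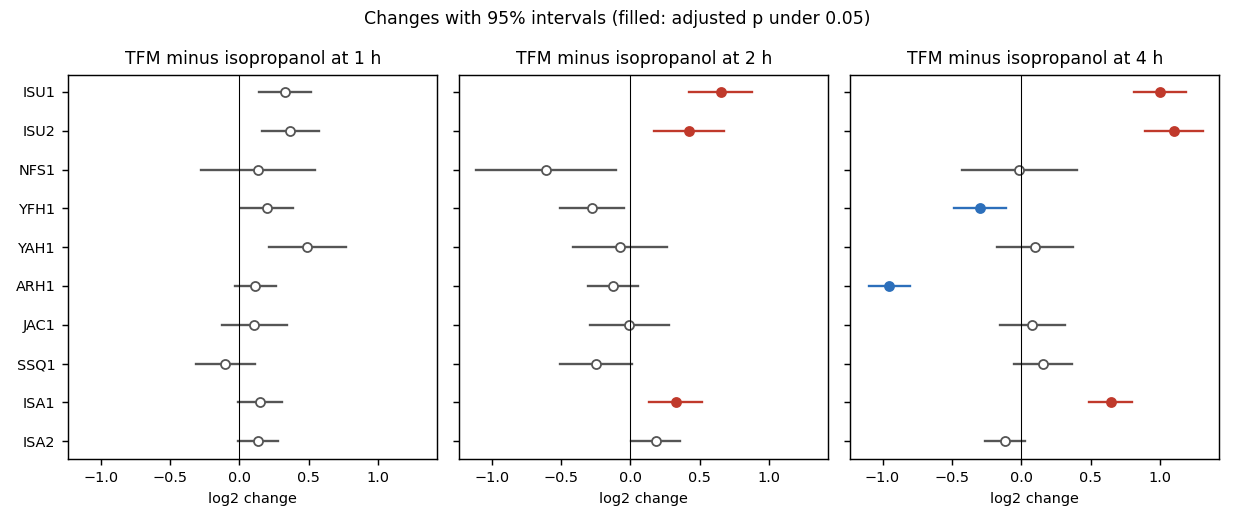
Log2 changes, TFM minus isopropanol at 1, 2 and 4 h, with 95% intervals from limma; filled points passed an adjusted p of 0.05, red for higher and blue for lower. ISU1 and ISU2 lie at 1.00 and 1.10 at 4 h, ISA1 at 0.65 and ARH1 at -0.95, and the NFS1 interval is the widest in each panel.

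The other 8 genes lay on both sides of 0 at 4 h. The mean change of ISU1 and ISU2 was 0.35, 0.54 and 1.05 at 1, 2 and 4 h. The median over the other 8 genes was 0.14, -0.10 and 0.03, beside a median of all genes of 0.01, 0.01 and -0.01. At 4 h the other 8 spread over -0.95 to 0.65, with ARH1 at the bottom and ISA1 at the top. Averaged over the 3 times, the change was 0.66 ± 0.052 for ISU1 (limma adjusted p = 1.28e-05), 0.63 ± 0.058 for ISU2 (adjusted p = 2.87e-05), 0.37 ± 0.043 for ISA1 (adjusted p = 9.74e-05) and -0.32 ± 0.041 for ARH1 (adjusted p = 0.000167). The other 6 genes did not pass in that average, where 27.7% of all genes rose and 28.2% fell, 55.9% together.

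Sulfur and iron reach the scaffold through the cysteine desulfurase Nfs1 and the frataxin homolog Yfh1, which promotes the sulfur transfer. NFS1 stood at 12.28 and 12.23 on the TFM 1 h arrays, against 11.95 and 12.29 with isopropanol. NFS1 had 12.22 and 11.72 with TFM at 2 h, against 12.58 with isopropanol. Its 4 h values were 12.19 and 12.64 with TFM, against 12.38 and 12.47 with isopropanol, and the groups overlapped at 1 and 4 h. NFS1 did not pass the test at any time, with changes of 0.14 ± 0.18, -0.61 ± 0.22 and -0.01 ± 0.18 (limma adjusted p = 0.737, 0.102 and 0.956), and at 4 h its 95% interval ran from -0.42 to 0.40. At 2 h NFS1 passed without TFM 2 h replicate 1 (-0.86, adjusted p = 0.0294) and with time zero as the control (-0.57, adjusted p = 0.0488).

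Of the 10 genes NFS1 had the widest spread between replicates, with a residual SD of 0.22, larger than that of 94.9% of all genes. On several arrays, named below, its values stood opposite to the 3 prime excess. No correlation over all 13 arrays was computed. The lowest value, 11.72, was on TFM 2 h replicate 2 with an excess of 1.49, and the next, 11.95, on isopropanol 1 h replicate 1 with 1.42. The 2 time zero arrays and the isopropanol 2 h array had 12.50, 12.58 and 12.58 with an excess of 1.19, 1.21 and 1.14. TFM 4 h replicate 2 went against this, with 12.64 at an excess of 1.40, and so did TFM 2 h replicate 1, with 12.22 at an excess of 1.18. With the excess as a covariate NFS1 turned higher at 4 h, by 0.66 (limma adjusted p = 0.00429), so no direction can be given for it.

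**Figure D3:**
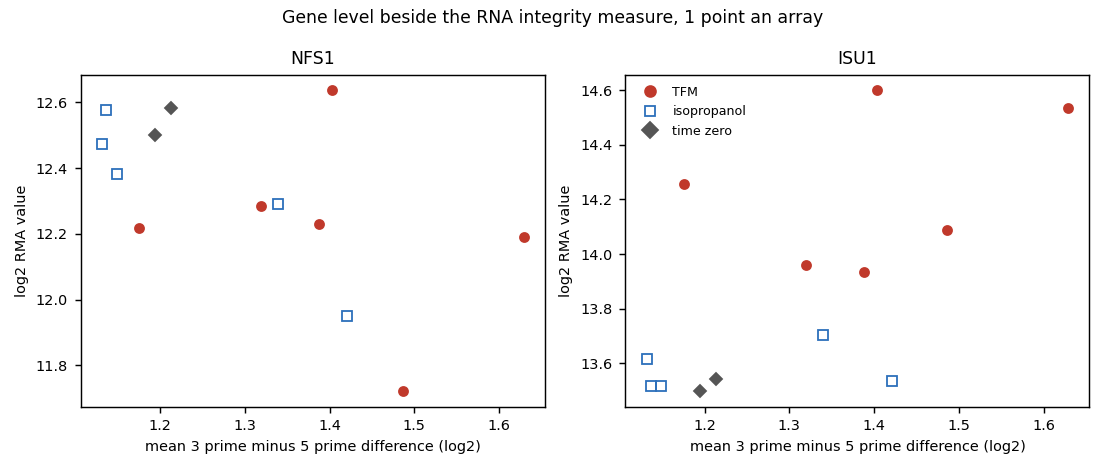
Log2 RMA value of NFS1 and of ISU1 against the 3 prime excess of the control transcripts (log2), 1 point an array, for TFM (circles), isopropanol (open squares) and time zero (diamonds). NFS1 is lowest, at 11.72, on an array with an excess of 1.49. ISU1 is higher on all 6 TFM arrays than on the other 7. The part of the excess in the values of either gene was not tested beyond the covariate fits.

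YFH1 stood at 11.66 and 11.68 on the TFM 1 h arrays, against 11.46 and 11.48 with isopropanol. Its 2 h values were 11.50 and 11.37 with TFM, against 11.71 with isopropanol. After 4 h YFH1 had 11.62 and 11.41 with TFM, against 11.75 and 11.87 with isopropanol. Time zero had 11.75 and 11.76, so the isopropanol 1 h arrays were themselves the low ones at that time. The change in YFH1 was 0.20 ± 0.084 at 1 h (limma adjusted p = 0.259), -0.27 ± 0.10 at 2 h (adjusted p = 0.103) and -0.30 ± 0.084 at 4 h (adjusted p = 0.0108). The fall at 4 h was lost without TFM 4 h replicate 2 (-0.19, adjusted p = 0.0779), without isopropanol 4 h replicate 2 (-0.24, adjusted p = 0.0726), with the 3 prime excess covariate (-0.31, adjusted p = 0.107), with only the groups compared (-0.30, adjusted p = 0.0686) and against all 5 isopropanol arrays (-0.14, adjusted p = 0.261), and it passed against time zero (-0.24, adjusted p = 0.0309). At 2 h YFH1 passed with time zero as the control (-0.32, adjusted p = 0.025).

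Electrons for the new cluster come from NADPH through the ferredoxin reductase Arh1 to the ferredoxin Yah1. ARH1 stood at 10.86 and 10.78 on the TFM 1 h arrays, against 10.65 and 10.76 with isopropanol. ARH1 had 10.60 and 10.56 with TFM at 2 h, against 10.71 with isopropanol. At 4 h it had 9.91 and 9.90 with TFM, against 10.82 and 10.89 with isopropanol, where time zero had 10.73 and 10.77. Every array outside the TFM 4 h group lay between 10.56 and 10.89, and both TFM 4 h arrays were below that range. The change in ARH1 was 0.12 ± 0.066 at 1 h (limma adjusted p = 0.386), -0.13 ± 0.081 at 2 h (adjusted p = 0.318) and -0.95 ± 0.066 at 4 h (adjusted p = 2.57e-06), a level of 0.52-fold. Against all 5 isopropanol arrays ARH1 passed at 2 h too (-0.19, adjusted p = 0.0476). In the step between TFM 2 h and TFM 4 h ARH1 fell by 0.68 ± 0.066 (adjusted p = 4.31e-05).

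YAH1, the gene of the partner ferredoxin, stood at 11.39 and 11.47 on the TFM 1 h arrays, against 10.87 and 11.00 with isopropanol. YAH1 had 11.35 and 11.09 with TFM at 2 h, against 11.30 with isopropanol. At 4 h it had 11.27 and 11.22 with TFM, against 10.96 and 11.33 with isopropanol, and the groups overlapped at 2 and 4 h. Its change of 0.49 ± 0.12 at 1 h was the largest among the 10 genes at that time and missed the threshold (limma adjusted p = 0.0958). It passed there when either isopropanol 4 h array was left out (adjusted p = 0.0456), which alters the variance estimate and not the change. Against time zero, which had 11.18 on both arrays, the 1 h change was 0.25 (adjusted p = 0.31). At 4 h the change in YAH1 was 0.10 ± 0.12 (adjusted p = 0.496). The YAH1 value less the ARH1 value, relative to time zero, was 0.93 and 0.90 on the TFM 4 h arrays, against -0.29 and 0.01 on the isopropanol 4 h arrays, so the TFM 4 h arrays stood apart from all others in this gap; whether the changes of YAH1 and ARH1 differ was not tested as such.

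The J-protein Jac1 and the Hsp70 Ssq1 are chaperones that release the finished cluster from the scaffold. JAC1 ranged over 10.70 to 10.98 on the TFM arrays and over 10.66 to 10.83 on the isopropanol arrays, and the groups overlapped at each time. Its changes were 0.11 ± 0.10, -0.01 ± 0.13 and 0.08 ± 0.10 at 1, 2 and 4 h (limma adjusted p = 0.621, 0.977 and 0.528), and the 95% interval at 4 h was -0.15 to 0.31. SSQ1 stood at 11.07 and 10.90 on the TFM 1 h arrays against 11.16 and 11.01 with isopropanol, at 10.85 and 10.83 on the TFM 2 h arrays against 11.09, and at 11.14 and 11.38 on the TFM 4 h arrays against 11.12 and 11.09. It was lowest on the TFM 2 h arrays and highest on TFM 4 h replicate 2. Against isopropanol its changes of -0.10 ± 0.094, -0.25 ± 0.12 and 0.16 ± 0.094 did not pass (adjusted p = 0.617, 0.182 and 0.168). Without TFM 4 h replicate 1 the change in SSQ1 at 4 h was 0.28 and passed (adjusted p = 0.0334). Against all 5 isopropanol arrays SSQ1 passed at 2 h (-0.25, adjusted p = 0.0219). In the step between TFM 2 h and TFM 4 h SSQ1 rose by 0.42 ± 0.094 (adjusted p = 0.00418).

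Isa1 and Isa2 act late, in the making of the larger clusters of proteins such as aconitase, and are thought to work together. ISA1 stood at 12.74 and 12.90 on the TFM 1 h arrays, against 12.67 on both isopropanol 1 h arrays. ISA1 had 13.03 and 12.99 with TFM at 2 h, against 12.68 with isopropanol. Its 4 h values were 13.37 and 13.45 with TFM, against 12.77 and 12.76 with isopropanol, and time zero had 12.77 and 12.78. The isopropanol and time zero arrays lay within 0.11 of each other, and 5 of the 6 TFM arrays were above all of them. The change in ISA1 was 0.15 ± 0.070 at 1 h (limma adjusted p = 0.295), 0.33 ± 0.085 at 2 h (adjusted p = 0.0341) and 0.65 ± 0.070 at 4 h (adjusted p = 3.2e-05), a 1.56-fold level. The 2 h call of ISA1 was lost without either TFM 2 h array (0.31 and 0.35, adjusted p = 0.0696 and 0.0718), either time zero array (adjusted p = 0.0649) or either isopropanol 1 h array (adjusted p = 0.0538), and with the 3 prime excess covariate (0.35, adjusted p = 0.0541).

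ISA2 stood at 12.38 and 12.29 on the TFM 1 h arrays against 12.18 and 12.22 with isopropanol, at 12.36 on both TFM 2 h arrays against 12.18, and at 12.14 and 12.10 on the TFM 4 h arrays against 12.19 and 12.28. Both TFM arrays were above isopropanol at 1 and 2 h and below it at 4 h, by amounts that did not pass the test (0.14 ± 0.064, 0.18 ± 0.079 and -0.12 ± 0.064, limma adjusted p = 0.301, 0.151 and 0.127). Against all 5 isopropanol arrays ISA2 passed at 2 h (0.15, adjusted p = 0.0457). Within the TFM course ISA2 fell by 0.24 ± 0.064 between 2 and 4 h (adjusted p = 0.0103), while ISA1 rose by 0.40 ± 0.070 (adjusted p = 0.00106). The ISA1 value less the ISA2 value, relative to time zero, was 0.68 and 0.81 on the TFM 4 h arrays, against 0.03 and -0.07 on the isopropanol 4 h arrays. At 2 h it was 0.13 and 0.08 with TFM, against -0.04 with isopropanol.

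**Figure D4:**
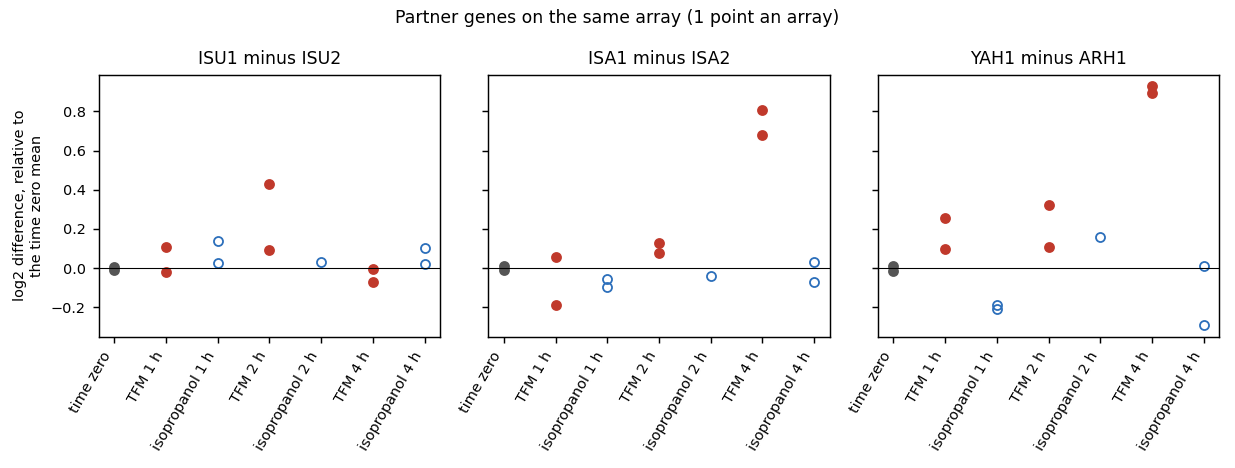
Difference in log2 RMA value between partner genes on the same array, relative to the time zero mean, by group (TFM filled red, isopropanol open blue, time zero grey). ISU1 and ISU2 keep near 0 apart from 1 TFM 2 h array at 0.43, while ISA1 minus ISA2 reaches 0.68 and 0.81 and YAH1 minus ARH1 reaches 0.93 and 0.90 on the TFM 4 h arrays.

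In isopropanol without TFM none of the 10 genes passed against time zero at 1, 2 or 4 h in limma, beside 0% of all 5449 genes at each time. An unadjusted p under 0.05 was reached by 2 of the 10 at 1 h and by 0 at 2 and 4 h, beside 367, 111 and 67 of all genes. These 2 were NFS1 at -0.42 ± 0.18 and YFH1 at -0.28 ± 0.084 (adjusted p = 0.669 for both). With a trended, robust variance the count among the 10 was 0 as well. With same-numbered replicates as pairs and all 13 arrays fitted, 0 of all genes passed at each time too. With the pairs and only the arrays without TFM, 44 genes of the array rose and 39 fell at 1 h in isopropanol against time zero. At 2 and 4 h 0 passed in that fit. None of the 10 was among these 83, NFS1 and YFH1 coming closest (limma adjusted p = 0.069 and 0.0879). The pairs were chosen from these same values, and those arrays were not fitted without pairs, so what moved the count was not tested. Without pairs, 10 genes of the array passed at 1 h when only the groups compared were fitted. On the 7 arrays without TFM, ISA2 ranged over 0.11, ISA1 over 0.11, SSQ1 over 0.14, JAC1 over 0.17, ISU2 over 0.18, ISU1 over 0.21, ARH1 over 0.24, YFH1 over 0.41, YAH1 over 0.46 and NFS1 over 0.63. The widest ranges thus belonged to YFH1, YAH1 and NFS1, each with its lowest of these values on isopropanol 1 h replicate 1.

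The genes whose course was most like that of the scaffold genes were sought by Pearson correlation over the 7 group means, among all other genes. For ISU1 these were YOR019W, LCP5, STE20, YEL1 and PEX6, at r of 0.993 to 0.997. For ISU2 they were ATR1, STE11, FRE5, TRM44 and MCH4, at r of 0.996 to 0.998. ISU1 and ISU2 correlated with each other at 0.97, which placed ISU2 at rank 158 in the list for ISU1 and ISU1 at rank 199 in that for ISU2. ISA1 followed at 0.94 with ISU1 and 0.96 with ISU2, and ARH1 ran opposite, at -0.84 and -0.89. These points share arrays and normalization and number 7, so many genes come this close.

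Around the 10 genes, related steps of the pathway were described from lists of 78 genes, of which 76 were measured. Of 7 other genes of mitochondrial cluster assembly 2 rose and 4 fell at 4 h, beside 30.9% and 34% of all genes. IBA57, whose protein works with Isa1 and Isa2, rose by 0.90 ± 0.070 (limma adjusted p = 4.92e-06). It was the 1 gene of this list that had also passed at 1 h (0.38) and 2 h (0.56), beside 1.23% and 14.1% of all genes. ISD11, whose protein stabilises the desulfurase, rose by 0.59 ± 0.11 (adjusted p = 0.001). The falls were led by BOL3 (-0.75 ± 0.11), MGE1, the nucleotide exchange factor of the mitochondrial Hsp70 proteins (-0.64 ± 0.11), and NFU1, a cluster carrier (-0.52 ± 0.10). The list median was -0.20, beside -0.01 for all genes. Of the 5 genes of iron import into mitochondria and of the export step, MRS3, an iron carrier of the inner membrane, rose by 0.84 ± 0.082, and GGC1, ERV1 and ATM1, the last encoding the transporter that serves cluster assembly in the cytosol, fell by 0.73 ± 0.12, 0.47 ± 0.10 and 0.32 ± 0.094. The median of these 5 genes was -0.32.

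The cytosolic machinery builds clusters for cytosolic and nuclear proteins from a sulfur compound that mitochondria supply. Of its 10 genes 6 rose and 2 fell at 4 h, beside 30.9% and 34% of all genes, with a median of 0.41 beside -0.01 for all genes. DRE2, part of its electron transfer step, rose by 1.53 ± 0.12 (limma adjusted p = 4.87e-06), NAR1 by 1.41 ± 0.094 (adjusted p = 2.2e-06) and CFD1, a scaffold component, by 1.23 ± 0.097 (adjusted p = 5.18e-06). DRE2 had already passed at 1 h (0.61) and 2 h (0.99), when 1 and 3 genes of this list rose and 0 fell. Of all genes 0.807% and 8.3% rose at these times, and 0.422% and 5.84% fell. CIA1 and MET18, components of the complex that delivers the cluster to its targets, fell by 0.73 ± 0.077 and 0.75 ± 0.10.

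Genes of the proteins that carry clusters are set beside the 30.9% of all genes that rose and the 34% that fell at 4 h. Of 7 in mitochondria 0 rose and 3 fell, namely ILV3, a dihydroxyacid dehydratase (-1.23 ± 0.071), BIO2, biotin synthase (-0.51 ± 0.074), and RIP1, the Rieske protein of the respiratory chain (-0.55 ± 0.13). ACO1, aconitase, stood at -0.06 (limma adjusted p = 0.387) and SDH2, of succinate dehydrogenase, at 0.11 (adjusted p = 0.242). Of 16 in the cytosol and nucleus 4 rose and 8 fell. RLI1, needed for ribosome recycling, fell by 1.99 ± 0.14, ELP3, of the tRNA-modifying Elongator complex, by 1.31 ± 0.093, and POL2, a DNA polymerase subunit, by 0.77 ± 0.088. DPH2 rose by 0.66 ± 0.11, LEU1, of leucine synthesis, by 0.34 ± 0.076, and CHL1 by 0.28 ± 0.085. The list medians were -0.09 and -0.24.

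Among 9 genes of iron sensing and storage 5 rose and 1 fell at 4 h, beside 30.9% and 34% of all genes. The iron regulators AFT2 and AFT1 rose by 1.84 ± 0.087 and 1.51 ± 0.14, and YAP5, whose protein responds to high iron, by 1.24 ± 0.10, while GRX3, a cytosolic glutaredoxin that restrains Aft1, fell by 0.70 ± 0.070. Of 15 genes of the iron regulon, which Aft1 and Aft2 switch on when iron is short, 7 rose and 3 fell, beside the same shares, with a median of 0.27. HMX1, heme oxygenase, rose by 1.66 ± 0.11, CCC2, a copper transporter, by 1.38 ± 0.14 and FTR1, the iron permease, by 0.65 ± 0.090. ARN2, a siderophore transporter, fell by 0.55 ± 0.078, FIT2 by 0.35 ± 0.062 and ATX1, a copper chaperone, by 0.60 ± 0.14. Of 7 general mitochondrial chaperone genes such as SSC1 and HSP60 0 passed at 4 h, beside 64.9% of all genes, with a median of 0.05. Under cyclic loess 3 of them rose, beside 1825 of all 5449 genes. With the 3 prime excess as a covariate 1 rose, beside 1155 of all genes.

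When the 3 prime excess was a covariate, the counts at 4 h were 2 higher and 2 lower for other mitochondrial assembly, 1 and 1 for iron import and export, 5 and 2 for the cytosolic machinery, 1 and 2 for mitochondrial cluster proteins, 1 and 8 for cytosolic and nuclear ones, 4 and 1 for iron sensing and 6 and 2 for the iron regulon. Over all 5449 genes the same fit gave 1155 higher and 1293 lower, against 1685 and 1854 without the covariate. Of the 10 core genes ISU1, ISU2 and ISA1 still rose and ARH1 still fell at 4 h with that covariate, at 1.20, 1.09, 0.69 and -0.89 (limma adjusted p = 0.000137, 0.000854, 0.00157 and 0.000361).

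**Figure D5:**
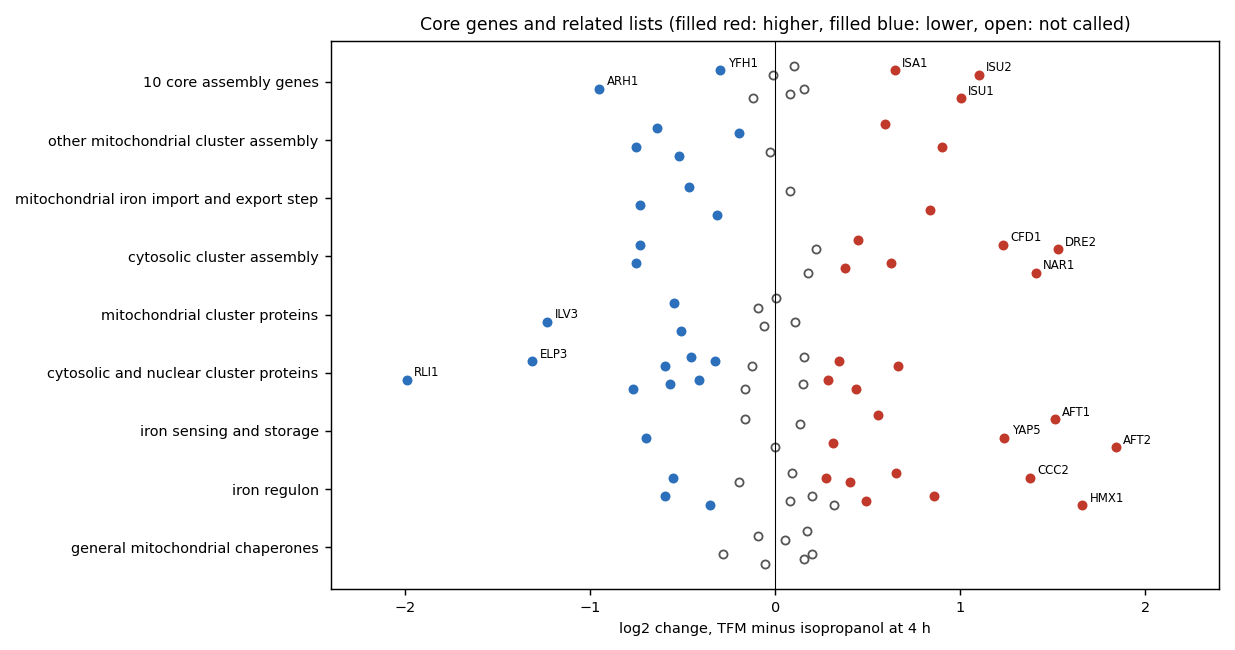
Log2 change, TFM minus isopropanol at 4 h, for the 10 core assembly genes and 8 related lists, 1 point a gene (filled red higher, filled blue lower, open not passing; names are given for the passing core genes and for the list genes of largest change). Points of the core genes and of the cytosolic machinery lie on both sides of 0, with DRE2, NAR1 and CFD1 at 1.53, 1.41 and 1.23.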

How the data were processed

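The deposited table holds log2 RMA values, which are background-corrected, quantile normalized and summarised per probe set; that the authors used RMA is per the submitters' processing notes, and the RMA version is not stated there. Of 5900 probe sets 5498 were paired with 1 gene in the array annotation, with symbols updated through the RefSeq gene table. For 47 genes with several probe sets the brightest on average was kept, leaving 5449 genes. No value was added before testing. A single limma model of the 7 group means (limma 3.58.1, R 4.3.3) was fitted to all arrays (6 residual and 3.52 prior degrees of freedom); the spread of the single isopropanol 2 h array was taken from the remaining groups. P-values are two-sided and adjusted over all 5449 genes by Benjamini-Hochberg. The number of arrays limits the precision, with a median standard error of 0.095 at 1 and 4 h and 0.12 at 2 h.

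The comparisons were TFM minus isopropanol at each time and on average, the effect at 4 h minus that at 1 h, isopropanol minus time zero and, added after the data were examined, the steps within the TFM course. The 10 genes and the lists were chosen with earlier results of these data known. All 10 are named; from each list up to 3 genes each way that passed at 4 h, of smallest adjusted p, are named, and other list genes were named after their values were seen. The 5 genes most like ISU1 and ISU2 are those of highest correlation. The model was tested on simulated data. Same-numbered replicates deviated together among the time zero, isopropanol 1 h and isopropanol 4 h groups (3 correlations of 0.27 to 0.60). On the data alone, their numbers were therefore taken as pairs in an alternative fit of the arrays without TFM. Over all 15 pairs of groups the range was -0.47 to 0.60 and 3 exceeded 0.1. The main model used no pairs. The replicate block fitted to all arrays also tied the TFM arrays by number, though no correlation with a TFM group exceeded 0.1. Settings changed in turn were normalization, variance, dim genes, probe set rule, arrays fitted, control group, covariates, replicate block and single arrays left out. Plotting used matplotlib 3.10.9 (Python 3.11.15).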

Additional observations from a re-analysis of the deposited data

Results flagged for a closer look

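The TFM effect at 4 h differed from that at 1 h in 6 of the 10 genes by the test of the difference itself in limma, beside 49.3% of all genes. The difference, the effect at 4 h minus that at 1 h, was 0.67 for ISU1 (adjusted p = 0.00134), 0.73 for ISU2 (adjusted p = 0.00156), 0.50 for ISA1 (adjusted p = 0.0027), -1.07 for ARH1 (adjusted p = 4.95e-05), -0.50 for YFH1 (adjusted p = 0.00676) and -0.26 for ISA2 (adjusted p = 0.0406). For ISU1, ISU2 and ISA1 the estimate was upward at both times and larger at 4 h. For ARH1, YFH1 and ISA2 the TFM arrays stood above isopropanol at 1 h and below it at 4 h. None of these 6 genes passed at 1 h (limma adjusted p = 0.0958, 0.0958, 0.295, 0.386, 0.259 and 0.301, in that order). At 4 h ISA2 did not pass either (adjusted p = 0.127). The share of all genes that turned in this way was not counted. In YFH1 the isopropanol mean moved from 11.47 at 1 h to 11.81 at 4 h and the TFM mean from 11.67 to 11.52. The time zero mean of YFH1 was 11.75, above the TFM mean at 1 h. The call of ISA2 held in 9 of 23 other settings, with adjusted p up to 0.151. With the 3 prime excess covariate YFH1 did not pass (-0.51, adjusted p = 0.0521).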

How the results depend on the processing

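The 24 calls on single genes gave 569 values under 26 other settings, of which 530 stayed past the threshold in the same direction, 39 did not pass and 0 reversed. ISU1, ISU2, ISA1 and ARH1 at 4 h passed in all 25 settings run there. Some of the settings could not move a log2 change. Each of the 10 genes has 1 probe set, and an array left out from a group outside the comparison alters at most the variance estimate. At 1 h the count of 0 became 1 with a trended, robust variance, with only the groups compared, with the 3 prime excess covariate and with time zero as the control, and 2 with the 5 isopropanol arrays pooled. Over all genes the 67 calls at 1 h became 94, 97, 144, 117 and 307 under these settings, in the same order. At 2 h the count of 3 became 0 with only the groups compared (1 isopropanol array, few degrees of freedom), 1 with the 3 prime excess covariate, 1 with the replicate block, 5 with time zero as the control and 6 with the 5 isopropanol arrays pooled. The 770 calls over all genes at 2 h became 3, 513, 487, 1313 and 1641 under these settings, in the same order. At 4 h and in the other comparisons the counts among the 10 genes stayed within 1.5 times. Leaving out single arrays moved the counts at 1, 2 and 4 h, both among the 10 genes and over all genes, and left at most 1 array in the group concerned. NFS1, not called at 4 h (-0.01), was called higher with the 3 prime excess covariate (0.66), and its effect at 4 h minus that at 1 h (-0.15) became 0.57. The replicate block with all arrays left ISU1 called at 2 h, and ISU2 (0.39, limma adjusted p = 0.0675) and ISA1 (0.31, adjusted p = 0.0684) uncalled. That block also tied the TFM arrays by number, although their same-numbered replicates did not deviate together. For isopropanol against time zero that block gave 0 calls over all genes at each time, as did the main model. Fitted on the arrays without TFM, the block gave 0 calls among the 10 genes but 83 over all genes at 1 h (44 higher, 39 lower). The pairs were chosen from these same values, and the arrays without TFM were not fitted without the block. With only the groups compared and no block, 10 genes of the array passed at 1 h in isopropanol against time zero. The cause of these shifts was not tested.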
